A study of Mus musculus with 6 samples.

Results

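The genes described here are the enzymes that remove superoxide and peroxides and that keep glutathione and protein thiols reduced, measured in the hearts of sham-operated and adrenalectomized mice. They were chosen by name, with earlier results of these data known. A gene was a member when the array names one of its probes Gclc, Gclm, Gsr, Sod1, Sod2, Sod3, Cat, Hmox1, Nqo1 or Srxn1, or gives it a name that starts with Gsta, Gstm, Gstp, Gstt, Gstk, Gsto, Mgst, Gpx, Prdx or Txn. This took 116 of 41174 probes, which carry 70 of 27947 gene names. Of these 70 genes, 66 passed the detection filter (signal well above background in every heart of 1 group or both) and were tested, among 16576 tested genes in all. The 4 others were Gpx5, Gpx6, Nxnl1 and Txndc8. Current symbols differ from the array's names for 12 members, and the name rule therefore also holds genes such as Glrx3 (Txnl2 on the array), Erp44 (Txndc4), Nme8 (Txndc3) and the Tmx genes.

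The mice were male and of C57BL/6, an inbred laboratory strain, with 3 in each group. The adrenal glands, the main source of corticosterone and aldosterone, were removed from one group at 1 month of age, and the other group had a sham operation. Hearts were taken 6 months later, although a second label gives an age of 6 months, and which of these holds is not known. The labels name no hormone replacement, and they do not say which parts of the heart were taken. RNA of each heart was amplified, labelled with Cy3 and hybridised to 1 array, so the comparison is between 3 and 3 arrays.

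Superoxide, which leaks from the respiratory chain of a tissue as rich in mitochondria as the heart, is turned into hydrogen peroxide by superoxide dismutases. Catalase, glutathione peroxidases and peroxiredoxins then reduce the peroxide, the last groups at the cost of glutathione or thioredoxin. Glutathione reductase and thioredoxin reductases recharge these thiols with NADPH, glutathione transferases join glutathione to reactive compounds, and many of these genes are known targets of the transcription factor Nrf2, which Keap1 holds back.

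The 75th percentile of the processed signal, to which all levels below are relative, ran from 644 to 924 over the 6 arrays, and 57.7% to 66.8% of spots were well above background. The 3 sham arrays and adrenalectomized mouse 1 lay on slide 1, and adrenalectomized mice 2 and 3 lay on slide 2, where the median local background was lower (49.0 and 49.5 against 69.0 to 71.0). Slide 1 alone therefore gives a difference within a slide, from a single adrenalectomized mouse. All 8 cardiomyocyte markers were tested, and 6 of 8 had a lower mean after adrenalectomy, with a median difference of −0.16 on the log2 scale. All 8 atrial cardiomyocyte markers were lower in every adrenalectomized heart than in every sham heart (median −0.66), against 7.91% of all tested genes. The part of these markers in the results below was not tested. The 9 tested adipocyte markers all had a higher mean, with a median of 1.34. In whole tissue, fewer cells of a type and less RNA per cell cannot be told apart.

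No antioxidant gene passed the test against the spread between mice. At an adjusted p under 0.05, limma called 0 of the 66 genes, against 0.0422% of all tested genes (7 genes), and the smallest adjusted p of a member was 0.355. At an unadjusted p under 0.05 the members were Mgst2 and Gsto2, with a higher mean after adrenalectomy, and Prdx5, with a lower one. These 3 genes are 4.55% of the members, where 12.3% of all tested genes reached that level (6.3% higher and 5.96% lower). The count was 8 without adrenalectomized mouse 1, where the members' share was slightly above that of all tested genes. It was 1 without sham mouse 1, where their share was below it. In 9 members (13.6%, against 18.3% of all tested genes) the groups did not overlap, 4 with higher and 5 with lower values after adrenalectomy (10.4% and 7.91% of all tested genes).

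The differences were small and centred near 0. The median difference (adrenalectomized minus sham, log2) was 0.03 over the members and 0.03 over all tested genes, and the median size of a difference was 0.14 in both. For 37 members the mean was higher after adrenalectomy and for 29 it was lower. The differences lay between −0.37 (Txndc5) and 1.59 (Mgst2). A difference of more than 0.5 in size was fitted for 3 members (4.55%, against 9.21% of all tested genes): Mgst2, Gpx2 and Txndc2. Of these, Txndc2 passed the detection filter only through the adrenalectomized group, where it was higher. The 95% interval lay within 1 log2 unit of 0, which is a doubling or halving, for 62 of the 66 genes (93.9%, against 88.5% of all tested genes), and within 0.5 for 35 of them (53.0%, against 51.2%). The exceptions to the wider limit were Mgst2, Gpx2, Txndc2 and Gstm7.

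**Figure D1:**
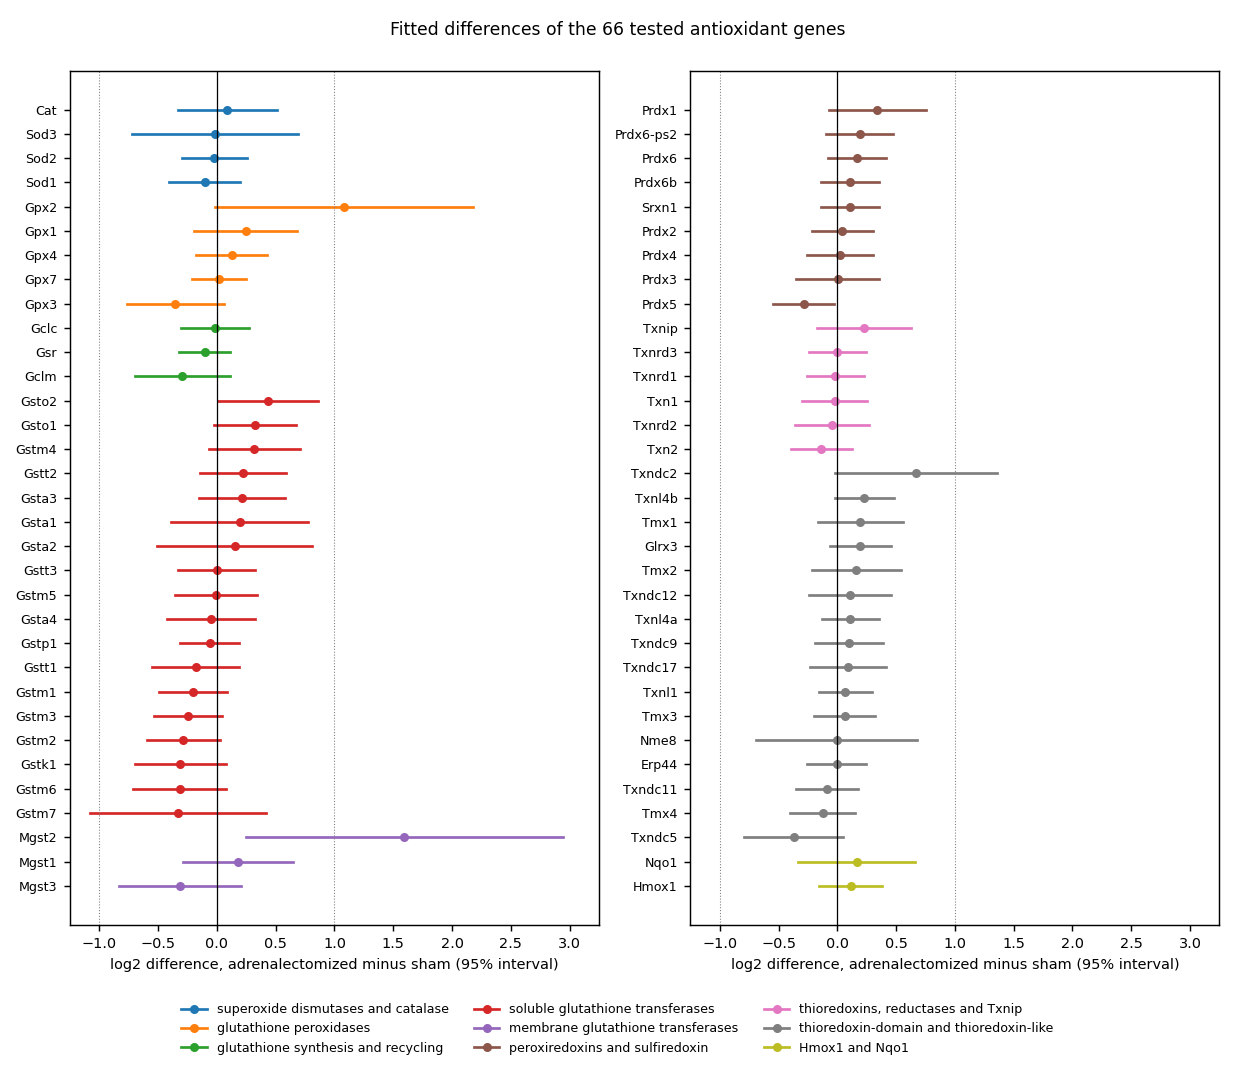
Fitted log2 differences (adrenalectomized minus sham, n = 3 and 3) of the 66 tested antioxidant genes, grouped by role, with points for the estimates and bars for 95% intervals from limma. Nearly all points lie within 0.5 of 0, and Mgst2 (1.59) and Gpx2 (1.08) stand to the right with wide intervals.

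The enzymes that act on superoxide and the peroxisomal enzyme catalase had nearly equal means in both groups, with differences whose sign turned with the scaling or with single arrays left out. Sod2, the mitochondrial dismutase, had log2 levels of 8.25, 8.15 and 7.93 in the sham hearts and 8.12, 8.08 and 8.07 in the adrenalectomized hearts. The adrenalectomized values lay inside the sham range, and the difference was −0.02 (SE 0.12, adjusted p = 0.954) with an interval from −0.30 to 0.25. Sod1, the cytosolic copper-zinc dismutase, stood at 7.49, 7.73 and 7.34 in sham hearts and at 7.40, 7.40 and 7.44 after adrenalectomy, a difference of −0.10 (SE 0.13, adjusted p = 0.774). Sod3, the secreted dismutase, varied more between mice. Its values were −2.44, −2.26 and −1.53 in sham hearts and −1.84, −1.84 and −2.59 in adrenalectomized hearts, and the interval of its difference ran from −0.72 to 0.69. Cat was at 3.34, 3.06 and 3.61 against 3.50, 3.60 and 3.18, a difference of 0.09 (SE 0.18, adjusted p = 0.875). In all 4 genes the groups overlapped.

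Of the 5 tested glutathione peroxidases, 4 had a higher mean after adrenalectomy and 1 a lower one, with a median difference of 0.13, and none passed the test. The median was 0.04 without adrenalectomized mouse 1 (3 higher, 2 lower), 0.23 without adrenalectomized mouse 3 and 0.06 within slide 1 (3 and 2). Gpx1, the main cytosolic peroxidase, was at 4.84, 4.93 and 5.08 in sham hearts and at 5.24, 5.52 and 4.82 in adrenalectomized hearts. Adrenalectomized mouse 3 lay below all sham hearts and the others above them, and the difference was 0.25 (SE 0.19, adjusted p = 0.624). Erythroid markers (6 of 10 tested, 5 with a higher mean) were likewise low in mouse 3: their median deviation was 0.22, −0.12 and 0.01 in sham and 0.61, 0.63 and −0.46 in adrenalectomized hearts, and their summed level ran from 962 to 1334 and from 758 to 1719.6. Their part in Gpx1 was not tested. Gpx4, which reduces lipid hydroperoxides in membranes, was at 6.61, 6.47 and 6.57 against 6.86, 6.70 and 6.47, a difference of 0.13 (SE 0.13, adjusted p = 0.722). Gpx3, the secreted plasma peroxidase, was at 4.72, 4.97 and 5.30 in sham hearts and at 4.83, 4.58 and 4.51 in adrenalectomized hearts. Its values overlapped through sham mouse 1 and adrenalectomized mouse 1, and the difference was −0.35 (SE 0.17, adjusted p = 0.463). Gpx2, best known from the gut epithelium, was a dim signal of −2.34, −2.60 and −2.88 in sham hearts and of −2.62, −0.65 and −1.30 in adrenalectomized hearts. Only the 2 adrenalectomized hearts on slide 2 were high, and the difference of 1.08 (SE 0.46, adjusted p = 0.413) was −0.01 within slide 1.

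The genes of glutathione synthesis and recycling did not pass the test, and all 3 had a slightly lower mean after adrenalectomy. Gclc, the catalytic subunit of the rate-limiting ligase of glutathione synthesis, was at −0.19, −0.14 and −0.18 in sham hearts and at −0.40, −0.06 and −0.10 in adrenalectomized hearts, a difference of −0.02 (SE 0.12, adjusted p = 0.972). Gclm, the modifier subunit of the same ligase, was at −2.37, −2.21 and −1.99 against −2.50, −2.21 and −2.74, a difference of −0.29 (SE 0.17, adjusted p = 0.528). Gsr, which reduces oxidised glutathione, was at 1.21, 1.21 and 1.19 in sham hearts and at 1.07, 1.13 and 1.11 in adrenalectomized hearts. Its groups did not overlap with the brightest of its 3 probes, but the difference was only −0.11 (SE 0.09, adjusted p = 0.675). All 3 probes were on the same side of 0, and with the other probes the groups overlapped. The sign of Gclc turned without adrenalectomized mouse 1 (0.09) and with array weights (0.02). That of Gsr turned under normexp background correction (0.09). The Gclm probe is shown as one whose design coordinates are wider than its own 60 bases: they span 2636 bases, at chr3:122027477-122030112 on the mm7 assembly.
Gclm: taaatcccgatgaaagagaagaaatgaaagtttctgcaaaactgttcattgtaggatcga

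The soluble glutathione transferases, 18 genes and all tested, had 7 higher and 11 lower means after adrenalectomy and a median difference of −0.03, which was 0.14 within slide 1 and with normexp background correction. The mu class stood to the low side except under normexp (median 0.09, 5 of 7 higher): 6 of its 7 genes had a lower mean, with a median of −0.25. Within slide 1 that median was only −0.06, with 3 higher and 4 lower. In Gstm2, Gstm3 and Gstm6 (3 of 7, against 7.91% of all tested genes) every adrenalectomized heart lay below every sham heart. The median deviation of the 7 mu-class genes from their sham means was −0.06, −0.19 and −0.44 in adrenalectomized mice 1, 2 and 3, so mouse 3 was the lowest and mouse 1 was level with the lowest sham heart (−0.06). Gstm6 was at −2.08, −2.14 and −2.05 in sham hearts and at −2.24, −2.20 and −2.77 in adrenalectomized hearts, a difference of −0.32 (SE 0.17, adjusted p = 0.492). Gstm2, a transferase abundant in muscle and chosen here after its values were seen, was at 5.14, 5.15 and 5.19 against 5.10, 4.84 and 4.68, a difference of −0.29 (SE 0.13, adjusted p = 0.433). Gstm7 varied among the sham hearts (−0.07, −0.23 and 0.67) as much as among the adrenalectomized ones (0.29, −0.20 and −0.71). Its interval ran from −1.08 to 0.42. Gstm4 was the mu-class gene with a higher mean (0.32, adjusted p = 0.486). The mu-class genes lie side by side on chromosome 3. The nearest match between tested probes of different mu-class genes was 31 of 60 aligned bases (Gstm1 and Gstm2) or, over a shorter overlap, 27 of 36 bases (Gstm5 and Gstm6). The Gstm6 probe, shown for this reason, spans 145 bases of chr3:107759339-107759483 on mm7.
Gstm6: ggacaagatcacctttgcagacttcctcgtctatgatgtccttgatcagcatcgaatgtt

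The omega class, whose enzymes reduce dehydroascorbate and other substrates, had higher means. Gsto1 was at 5.53, 5.16 and 5.46 in sham hearts and at 5.74, 5.87 and 5.51 in adrenalectomized hearts, a difference of 0.32 (SE 0.15, adjusted p = 0.432). Gsto2 was at −1.37, −1.32 and −1.39 against −1.19, −0.53 and −1.06. All adrenalectomized hearts were above all sham hearts, and the difference was 0.43 (SE 0.18, adjusted p = 0.405), of which 0.17 was seen within slide 1. Under normexp background correction the difference of Gsto2 was 0.09. The alpha class, which conjugates products of lipid peroxidation among others, had 3 higher means of 4 (1 of 4 without adrenalectomized mouse 1), and its median deviation was 0.47, 0.04 and −0.25 in adrenalectomized mice 1, 2 and 3. Gsta1 and Gsta2 were high in mouse 1 only (1.94 against 1.32 and 1.01 for Gsta1, and 0.32 against −0.43 and −0.71 for Gsta2), and both were chosen after their values were seen. Their probes share 27 of 28 aligned bases, so these values may not be independent.

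The membrane-bound transferases held the member with the largest difference. Mgst2, which joins glutathione to leukotrienes and other lipids, was at −2.28, −1.55 and −1.83 in sham hearts and at −1.64, 0.76 and 0.01 in adrenalectomized hearts, read by 1 probe at chr3:51807146-51807205 on mm7. The mean was 3.02-fold higher after adrenalectomy (log2 difference 1.59, SE 0.57, interval 0.25 to 2.94, adjusted p = 0.355). Adrenalectomized mouse 1 lay within the sham range, so that the difference was 0.24 within slide 1 and 2.27 for the 2 hearts on slide 2. With the slide as a block in the fit it was 0.24 (adjusted p = 0.882). Mgst3, a related mitochondrial peroxidase, was at 4.70, 4.55 and 4.68 against 4.63, 4.54 and 3.81, where adrenalectomized mouse 3 alone was low. Its difference was −0.31 (SE 0.22, adjusted p = 0.599).

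The adipocyte markers moved with Mgst2. Their median deviation from the sham means was −1.17, 0.86 and 0.18 in the sham hearts and 0.19, 2.03 and 1.76 in the adrenalectomized hearts, and the 6 hearts fell in the same order for these markers as for Mgst2. All 9 tested markers of 10 had a higher mean (Lep was not well above background), and their summed level, on a linear scale relative to the 75th percentile, ran from 335 to 467 in sham and from 406 to 755 in adrenalectomized hearts. Ucp1, the uncoupling protein of brown fat, was at 1.11, 3.21 and 3.82 in sham hearts and at 4.20, 6.42 and 6.16 in adrenalectomized hearts (difference 2.88, adjusted p = 0.275). Lymphocyte markers were also highest in adrenalectomized mouse 2, with a median deviation of 0.97 against 0.17 and 0.26 in mice 1 and 3. For Gpx2 and Gsto2 the same adrenalectomized heart, mouse 2, was the highest, and mouse 1 was the lowest of the adrenalectomized hearts. The part of these markers and of the slide in the 3 genes was not tested.

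**Figure D2:**
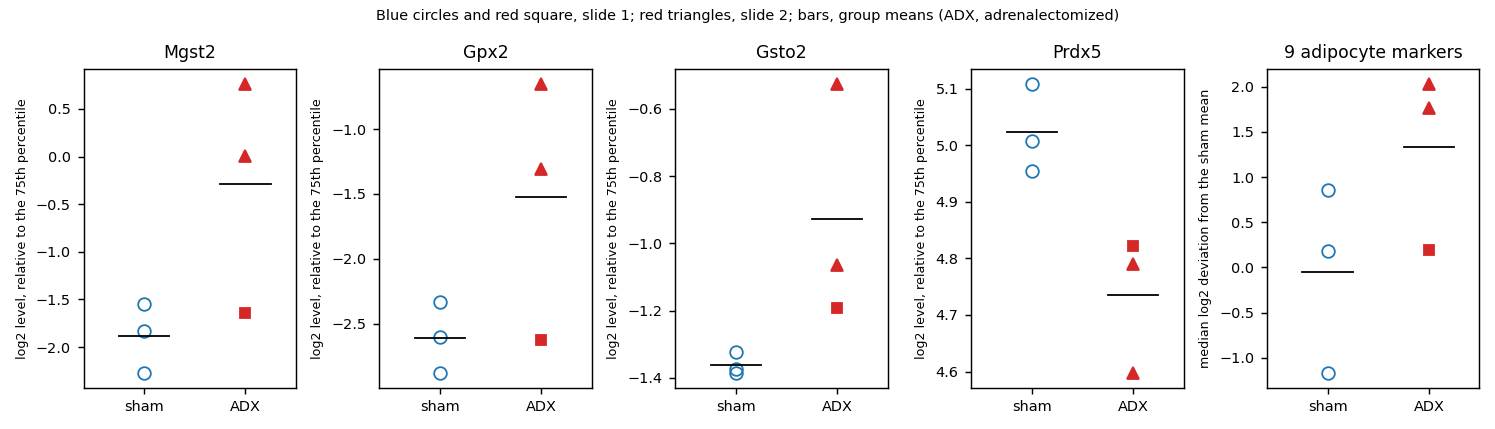
Log2 levels of Mgst2, Gpx2, Gsto2 and Prdx5 on the 6 arrays, relative to the 75th percentile of each array, and the median log2 deviation of 9 adipocyte markers from their sham means. Points are single hearts, marked by slide, and bars are group means. For Mgst2, Gpx2 and the markers, the adrenalectomized heart on slide 1 lies among the sham hearts and the 2 on slide 2 lie above them, whereas all 3 adrenalectomized hearts lie below the sham hearts for Prdx5.

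Most peroxiredoxins reduce peroxides with a cysteine that thioredoxin recharges, and sulfiredoxin (Srxn1) rescues some of them when that cysteine is overoxidised. Of the 9 genes of this group, which counts the Prdx6 copies Prdx6b and Prdx6-ps2, 8 had a higher mean after adrenalectomy and 1 a lower one, with a median difference of 0.11. Without adrenalectomized mouse 1 the split was 5 and 4 with a median of 0.06, and it was 6 and 3 with median centring or quantile normalization. None of the 9 genes passed the test. Whether the probes of the Prdx6 copies also read Prdx6 RNA was not tested. The values of Prdx6 and its copies may therefore not be independent. The probes of Prdx1 and Prdx5, whose differences were the widest apart in this group, have design coordinates wider than their 60 bases: they span 771 bases of chr4:116069412-116070182 and 435 bases of chr19:6726975-6727409 on mm7.
Prdx1: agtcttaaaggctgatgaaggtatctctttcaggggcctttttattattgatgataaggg
Prdx5: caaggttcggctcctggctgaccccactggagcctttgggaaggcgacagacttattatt

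Prdx5, found in mitochondria, peroxisomes and cytosol, was at 5.11, 4.96 and 5.01 in sham hearts and at 4.82, 4.79 and 4.60 in adrenalectomized hearts. Every adrenalectomized heart was below every sham heart, and the difference was −0.29 (SE 0.11, interval −0.55 to −0.03, adjusted p = 0.378). It was −0.20 within slide 1 and turned to 0.06 under normexp background correction. Prdx1, a cytosolic peroxiredoxin, was at 4.51, 4.23 and 4.71 against 5.10, 4.70 and 4.67, a difference of 0.34 (SE 0.17, adjusted p = 0.479). Its groups overlapped through sham mouse 3, and the difference was 0.62 within slide 1, where adrenalectomized mouse 1 was the highest of the 6 hearts. Prdx6, which also acts on phospholipid peroxides, was at 4.87, 4.96 and 5.08 in sham hearts and at 5.20, 5.11 and 5.10 in adrenalectomized hearts. These groups did not overlap, and the difference was 0.16 (SE 0.10, adjusted p = 0.562). With the other tested probe of Prdx6 the groups overlapped.

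The mitochondrial Prdx3 was at 4.49, 4.33 and 4.65 against 4.70, 4.50 and 4.26, a difference of 0.00 (SE 0.15) with an interval from −0.35 to 0.36. Prdx2, abundant in red blood cells, was at 6.99, 6.95 and 6.90 in sham hearts and at 7.14, 6.94 and 6.89 in adrenalectomized hearts (difference 0.04, SE 0.11). Prdx4 of the endoplasmic reticulum was at 2.47, 2.54 and 2.36 against 2.62, 2.32 and 2.49 (difference 0.02, SE 0.12). Srxn1 was at 2.00, 1.83 and 1.86 against 1.96, 2.09 and 1.96 (difference 0.11, SE 0.10, adjusted p = 0.713), and its 3 probes were on the same side of 0. With the brightest probe the groups overlapped in these 4 genes. The other probes of Prdx2 gave 0.18 and 0.21, and with the first of these the groups did not overlap (3.86 to 3.92 in sham hearts against 3.97 to 4.22). Its mean over probes differed by 0.14.

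**Figure D3:**
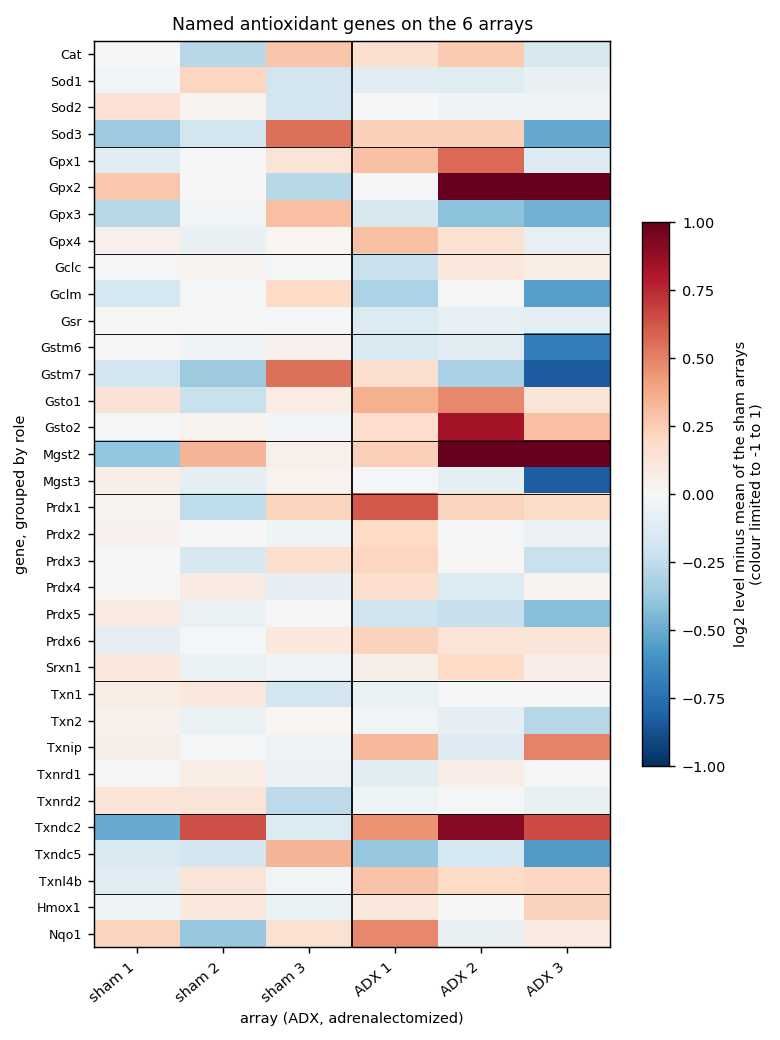
Log2 level of each of 34 named antioxidant genes on each array minus its mean over the 3 sham arrays, with the colour limited to −1 to 1 and the genes grouped by role. Most cells are pale. Gpx2 and Mgst2 are dark only in adrenalectomized mice 2 and 3, and Gstm7 and Mgst3 are lowest in adrenalectomized mouse 3.

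The thioredoxin system had the smallest differences of the groups with 5 or more tested genes, with a median size of 0.03 over 6 genes. Txn1, the cytosolic thioredoxin, was at 4.01, 4.05 and 3.75 in sham hearts and at 3.87, 3.92 and 3.95 in adrenalectomized hearts, a difference of −0.02 (SE 0.12, interval −0.30 to 0.25). Its mitochondrial counterpart Txn2 was at 5.62, 5.52 and 5.60 against 5.55, 5.48 and 5.30 (difference −0.14, SE 0.11, adjusted p = 0.645). The cytosolic reductase Txnrd1 was at 3.01, 3.10 and 2.97 against 2.92, 3.09 and 3.01 (difference −0.02, SE 0.10). Txnip, which binds and inhibits thioredoxin and is known as a gene induced by glucose and by glucocorticoids, was at 4.41, 4.34 and 4.31 in sham hearts and at 4.68, 4.23 and 4.84 in adrenalectomized hearts. Adrenalectomized mouse 2 lay below all sham hearts and the other two above them, and the difference was 0.23 (SE 0.17, interval −0.17 to 0.63, adjusted p = 0.613).

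The mitochondrial reductase Txnrd2 gave different values with different probes. Its brightest probe, at chr16:17987457-17987516 on mm7, was at 2.99, 3.00 and 2.61 in sham hearts and at 2.82, 2.85 and 2.79 in adrenalectomized hearts, a difference of −0.05 (SE 0.13, adjusted p = 0.918). The probe at chr16:18005761-18005820 was at −0.23, −0.49 and −0.06 against 0.38, 0.35 and 0.28, a difference of 0.59 (SE 0.14). The probe at chr16:18021973-18022576, whose design coordinates are wider than its 60 bases, was at 1.36, 1.18 and 1.63 against 1.74, 1.70 and 1.77, a difference of 0.35 (SE 0.14). With both of these, every adrenalectomized heart was above every sham heart. In the fit of all 23993 tested probes, where 0.00417% of probes were called, their adjusted p was 0.179 and 0.342, and no annotation of mm7 was used here to say which transcripts each probe reads. The sequence of the last probe is given so that it can be placed on a transcript.
Txnrd2: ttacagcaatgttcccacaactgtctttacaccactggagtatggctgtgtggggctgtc

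Of the 66 genes, 26 were read by more than 1 tested probe (61 probes in all), and in 21 of these 26 all probes lay on the same side of 0. The exceptions were Txnrd2, Tmx1, Tmx3, Txnl1 and Erp44. Tmx4, a membrane thioredoxin of the endoplasmic reticulum picked after its values were seen, had 3 probes below 0: −0.13 for the brightest, and −0.92 (SE 0.19) and −0.79 (SE 0.16) for the others. The probe with −0.92 was at −1.77, −1.36 and −1.90 in sham hearts and at −2.86, −2.52 and −2.40 in adrenalectomized hearts, and the one with −0.79 at −0.11, 0.00 and −0.15 against −1.05, −1.03 and −0.56. Neither pair of groups overlapped, and the adjusted p over all probes was 0.160 and 0.158. For Tmx1, also picked afterwards, one probe gave 0.20 and the other −0.61.

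**Figure D4:**
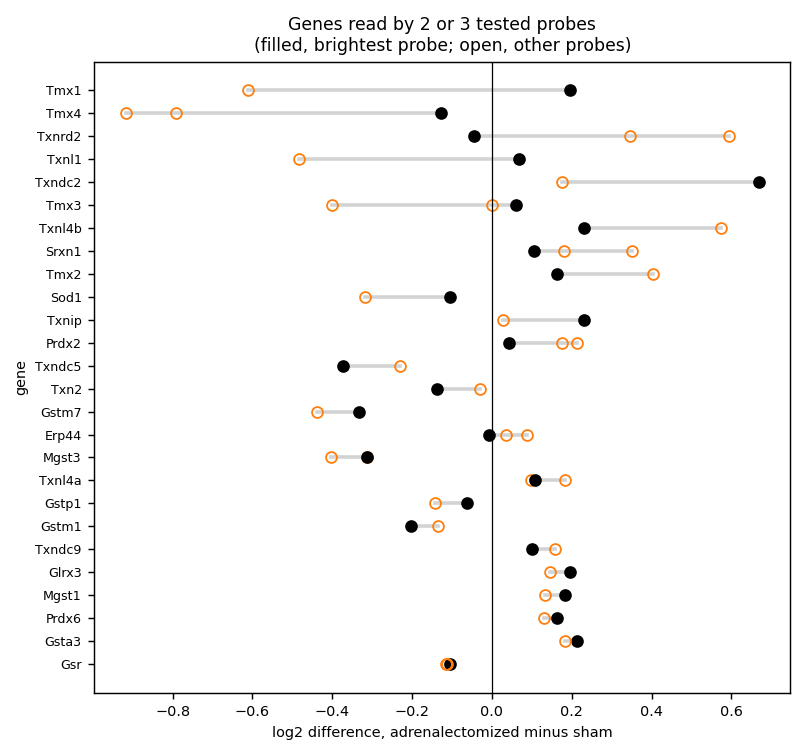
Log2 differences (adrenalectomized minus sham) of each tested probe of the 26 antioxidant genes read by 2 or 3 tested probes, with the brightest probe filled and the others open. Most genes have their probes close together, while Tmx1 spans −0.61 to 0.20, Tmx4 −0.92 to −0.13 and Txnrd2 −0.05 to 0.59.

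The thioredoxin-domain and thioredoxin-like genes, which include oxidoreductases of the endoplasmic reticulum and splicing factors with a thioredoxin fold, had 11 higher and 5 lower means among 16 tested, with a median difference of 0.09. Txnl4b, a splicing-related member, was at 1.33, 1.56 and 1.40 in sham hearts and at 1.71, 1.63 and 1.64 in adrenalectomized hearts. The groups did not overlap, and the difference was 0.23 (SE 0.11, adjusted p = 0.439). Its dimmer probe lay at 0.57. Glrx3, an iron-sulfur glutaredoxin chosen after its values were seen, did not overlap either (5.21, 5.14 and 5.15 against 5.52, 5.26 and 5.31, difference 0.19). With the dimmer probe of Glrx3 the groups overlapped. Txndc5, a protein disulfide isomerase, had the most negative difference of all members: 0.98, 0.95 and 1.47 in sham hearts and 0.75, 0.96 and 0.57 in adrenalectomized hearts, or −0.37 (SE 0.18, adjusted p = 0.450). Sham mouse 3 was the high value there. Txndc2, known from sperm, was near the detection limit at −4.21, −3.06 and −3.84 against −3.26, −2.80 and −3.05, and its difference of 0.67 (SE 0.29, adjusted p = 0.418) turned to −0.82 under another background correction (normexp), which called 12 members and 34.6% of all tested genes. It was well above background in only 2 sham hearts and so was tested through the adrenalectomized group alone. The other probe of Txndc2, which passed in the same way, gave 0.17.

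The cytoprotective enzymes Hmox1 and Nqo1, both textbook Nrf2 targets, did not pass the test. Hmox1, the inducible haem oxygenase, was at 0.47, 0.62 and 0.45 in sham hearts and at 0.62, 0.51 and 0.75 in adrenalectomized hearts, a difference of 0.11 (SE 0.11, interval −0.15 to 0.38, adjusted p = 0.715). Nqo1, a quinone reductase, was at 2.96, 2.36 and 2.89 against 3.22, 2.66 and 2.82, a difference of 0.16 (SE 0.21, interval −0.34 to 0.66, adjusted p = 0.790). Both sets of values overlapped.

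Nrf2 acts through the antioxidant response element, whose core was searched as TGACNNNGC on both strands in promoters from RefSeq (GRCm38.p6, 250 bases before to 50 after each start). For 58 of the 70 members 77 promoters were found. The core was in 14 of the 77 (18.2%), against 12.4% of all 32851 promoters, in as many genes. Of these 14 genes 6 had a higher mean after adrenalectomy, with a median difference of −0.01 and a range from −0.37 to 0.67. The upper end was Txndc2, which passed the detection filter only through the adrenalectomized group. The 40 tested members whose promoters lacked the letters had a median of 0.02, with 23 higher. A palindromic glucocorticoid response element, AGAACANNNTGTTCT, matched no member promoter and 3 of all 32851, and its 6-base arm AGAACA, on either strand, was in 12 of the 77 (15.6%), against 19.0% of all. A match of these letters does not show a bound site, and their absence from this window does not show that a gene lacks one. The split of the members by these letters therefore does not separate Nrf2 targets from other genes. Stretches from 180 to 61 bases before the start are shown with the core in capitals, as examples from 3 roles in which the core lies upstream of the start: Gclm (chr3:122245377-122245496), Prdx1 (chr4:116685419-116685538) and Txnrd1 (chr10:82859026-82859145, 1 of its 3 promoters), all on the plus strand, where the core reads in reverse. Their genes differed by −0.29, 0.34 and −0.02.
Gclm: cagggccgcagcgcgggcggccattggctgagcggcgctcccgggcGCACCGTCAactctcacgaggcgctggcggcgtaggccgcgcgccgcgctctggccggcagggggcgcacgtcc
Prdx1: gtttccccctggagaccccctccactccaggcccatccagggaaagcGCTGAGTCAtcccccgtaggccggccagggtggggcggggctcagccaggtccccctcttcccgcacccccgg
Txnrd1: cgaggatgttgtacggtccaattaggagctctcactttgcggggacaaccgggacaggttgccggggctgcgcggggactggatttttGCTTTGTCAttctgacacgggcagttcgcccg

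The genes that control Nrf2, on a list of 10, had 2 higher and 8 lower means, with a median difference of −0.10, and none was called at an adjusted p under 0.05. Their median deviation was −0.29, −0.25 and −0.03 in adrenalectomized mice 1, 2 and 3. In the sham hearts it ran from −0.08 to 0.08, so mouse 3 lay within the sham range. Keap1, the adaptor that sends Nrf2 to degradation, was at 3.80, 3.79 and 3.62 in sham hearts and at 3.02, 3.21 and 3.49 in adrenalectomized hearts. Its groups did not overlap, and the difference was −0.49 (SE 0.14, adjusted p = 0.286). Bach1, a repressor that competes with Nrf2 for its sites, was at −0.55, −0.12 and −0.90 against −1.68, −1.40 and −0.65 (difference −0.72, adjusted p = 0.406). Mafk, a small partner protein of both, was at 0.45, 0.54 and 0.67 against 0.26, 0.28 and 0.31 (difference −0.27, adjusted p = 0.380). These 3 of 10 genes had an unadjusted p under 0.05, all lower, where 12.3% of all tested genes reached that level and 5.96% were lower. Nfe2l2, the gene of Nrf2 itself and chosen here after its values were seen, had a higher mean after adrenalectomy. Its difference was small at 0.09 (SE 0.09, adjusted p = 0.727), although its groups did not overlap. In 3 of the 10 genes the groups did not overlap, 1 higher and 2 lower. Among all tested genes this share was 18.3% (10.4% higher and 7.91% lower).

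NADPH supply, a list of 15 enzymes of pathways linked to NADPH, had 10 higher and 5 lower means with a median of 0.20. Not all of these enzymes make NADPH themselves. At an unadjusted p under 0.05 stood 5 higher genes and 1 lower (6 of 15, against 12.3% of all tested genes, 6.3% higher and 5.96% lower), and none was called. Tkt, the transketolase of the pentose phosphate pathway, was at 3.85, 4.26 and 4.64 in sham hearts and at 4.27, 6.88 and 6.22 in adrenalectomized hearts, a difference of 1.54 (adjusted p = 0.395) that was 0.03 within slide 1. Pgd, which makes NADPH in that pathway, was at 1.22, 1.60 and 1.78 against 1.81, 2.96 and 2.46 (difference 0.88, adjusted p = 0.331), with 0.28 within slide 1. Me1, the cytosolic malic enzyme, was at 2.61, 2.55 and 2.82 against 3.02, 3.52 and 3.05 (difference 0.54, adjusted p = 0.299), with 0.36 within slide 1. Taldo1 and Aldh1l1 had differences of 0.54 and 0.41, with 0.26 and 0.15 within slide 1, and Pgls, which follows glucose-6-phosphate dehydrogenase, had −0.24. In all 5 genes with a higher mean at that level, adrenalectomized mice 2 and 3 were above mouse 1, as were the adipocyte markers. The part of those cells and of the slide was not tested.

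The other lists held no called gene. Among 15 tested genes of glutathione synthesis, export and breakdown, 6 means were higher and 9 lower, and the 2 at an unadjusted p under 0.05 (13.3%, against 12.3% of all tested genes) were Gss, which completes glutathione (0.28, adjusted p = 0.395), and the exporter Abcc4 (0.32, adjusted p = 0.400). A list of 12 genes held glutaredoxins (Glrx3 included), sestrins, methionine sulfoxide reductases and Park7. Of these, 6 were higher and 6 lower, and Msrb3 (1 of 12, 8.33%) stood at −0.35 (adjusted p = 0.300). Among 13 tested oxidant sources, 8 were higher and 5 lower, with 3 at that level (23.1%): Duox1 at 0.39 and Nos2 at 0.43, both dim, and the monoamine oxidase Maob at −0.31 (adjusted p = 0.256, 0.393 and 0.386). Nos2 in every sham heart and Duox1 in sham mouse 2 lay below the lowest level well above background on that array. Both passed the detection filter only through the adrenalectomized group, where they were higher, so the filter itself favoured their direction. Among 10 genes of haem and iron handling, 6 were higher and 4 lower, and Fech (1 of 10), the last enzyme of haem synthesis, stood at 0.28 (adjusted p = 0.404). The median deviation of that list was 0.09, 0.15 and −0.25 in adrenalectomized mice 1, 2 and 3, and the erythroid markers, which share Alas2 with it, stood at 0.61, 0.63 and −0.46. Their part was not tested. Of 15 genes for selenoproteins, their synthesis or selenium binding, 7 were higher and 8 lower and none had an unadjusted p under 0.05. The lowest p there belonged to Sephs2, which makes the selenium donor (0.44), and Selenom (−0.23).

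**Figure D5:**
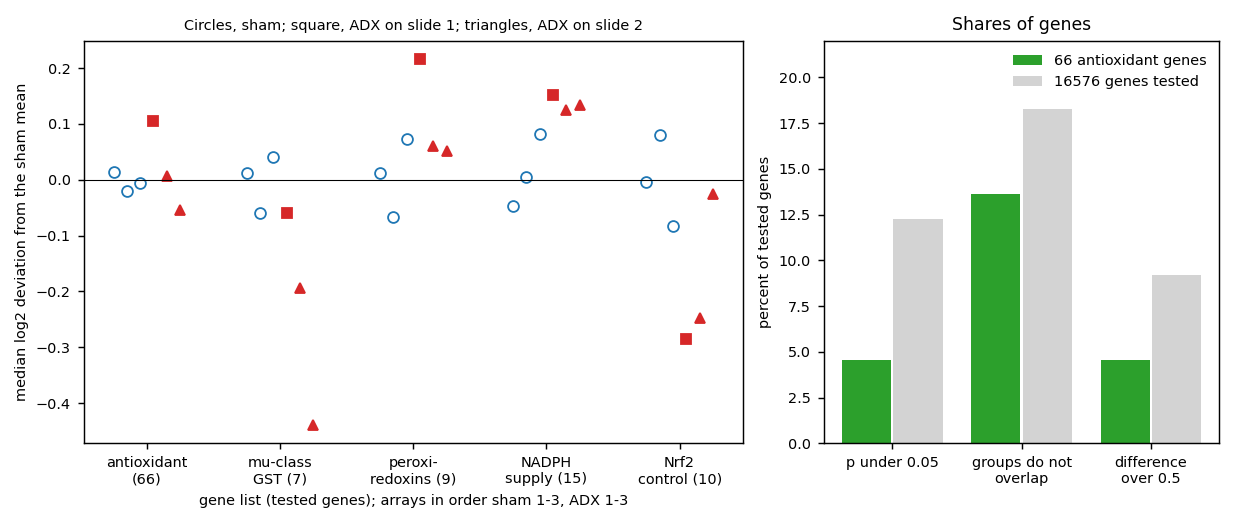
Left, the median log2 deviation from the sham mean of the tested genes of 5 lists on each array, with sham hearts as circles and adrenalectomized hearts as a square (slide 1) and triangles (slide 2). Right, bars from 0 give the percent of the 66 antioxidant genes and of all 16576 tested genes with an unadjusted p under 0.05, with groups that do not overlap, and with a difference over 0.5 in size. The medians of the antioxidant genes lie between −0.05 and 0.11 on the 6 arrays, and their 3 shares (4.55%, 13.6% and 4.55%) lie below those of all genes (12.3%, 18.3% and 9.21%).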

How the data were processed

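RNA was amplified from 50 ng with a whole-transcriptome kit and labelled with Cy3, per the labels' protocols, and scans were read with Agilent Feature Extraction 9.5, per the submitters' processing notes (9.5.3.1 per the file headers). The authors deposited an intensity per spot on a linear scale, background-subtracted and detrended within each array but not normalized between arrays, per the file headers. A surrogate replaced low intensities in 15.3% to 22.0% of spots. The authors' deposited value table repeated these intensities for all 45018 spots of each array, uncentred, with medians of 70.8, 68.1 and 84.4 (sham) and 75.1, 92.2 and 80.9 (adrenalectomized).

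The log2 of each intensity was taken here and the 75th percentile of its array subtracted. Control spots and outlier spots (80 to 133 an array) were left out, repeat spots were averaged, and a probe was tested when its signal was well above background in all 3 hearts of either group. The brightest tested probe, by its mean, stood for a gene. Symbols were updated through RefSeq accessions, which matched 98 of the 116 member probes. Coordinates on mm7, counted from 1, are those of the array design, and no mm7 annotation was used here. Differences were fitted with limma 3.58.1 in R 4.3.3 (lmFit and eBayes) and adjusted by Benjamini-Hochberg over all 16576 genes, a fit that was tested on simulated data. The number of arrays, 3 a group, limits the precision. The design calls the mice biological replicates. No spot of a tested member was saturated.

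Genes were named by rule: members with p under 0.05, the 2 of smallest p in each role, the 5 of largest difference in each direction, the core enzymes of each system whatever their result, and in each pathway list those with p under 0.05 or else the 2 of smallest p. The members and the lists were chosen with earlier results of these data known. Same-numbered samples did not deviate together (correlations 0.16, 0.17 and −0.16), so numbers were not taken as pairs. Python 3.11.15 with pandas 2.3.3 and matplotlib 3.10.9 made the tables and figures.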

Additional observations from a re-analysis of the deposited data

How the results depend on the processing

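Over 22 alternatives, 0 antioxidant genes were called in 21. Under normexp background correction 12 of 66 were (8 higher, 4 lower), against 5735 of all 16576 genes (34.6%). There the median difference of the members was 0.28, 26 had an unadjusted p under 0.05 (39.4%, against 48.2% of all genes), Gclm (−0.79), Gpx4 (0.47), Gstm6 (−0.84), Gsto1 (0.69), Prdx1 (0.71), Prdx6 (0.56) and Txnip (0.59) were called, and Txndc2 reversed to −0.82. Prdx5 was at 0.06 there. The local background differed between slides, and the cause was not tested. The count of members at an unadjusted p under 0.05, 3 in the reported fit, was 14 with array weights (21.2%, against 21.8% of all genes), 9 of 101 with every probe (8.91% against 13.5%), 7 with the mean of probes or with trend and robust variance (10.6% against 13.0% and 12.6%), 5 with median centring or with a fixed or a random slide block (7.58% against 11.4%, 9.74% and 12.9%), and 1 with no filter on dim probes (1.43% against 7.61%). It ran from 1 (without sham mouse 1, 1.52% against 8.13% of all genes) to 8 (without adrenalectomized mouse 1, 12.1% against 10.9%) when 1 array was left out. The median difference was 0.11 on slide 1 alone and 0.11 with the slide as a fixed block, where it was 0.06 and 0.05 over all genes. All genes called, 7 in the reported fit, were 92 with array weights, 43 on slide 1 alone, 34 at an adjusted p under 0.1, 13 with trend and robust variance, 11 with median centring, 2 with the percentile over detected probes or the mean of probes, and 1 with every probe, no filter, only probes above background on all arrays, the slide as a fixed block or the replicate block. Leaving out 1 array gave 41 (adrenalectomized mouse 1), 5 (adrenalectomized mouse 3), 2 (adrenalectomized mouse 2 or sham mouse 1), 7 (sham mouse 2) and 1 (sham mouse 3). With the replicate number as a block, 0 members were called and 3 had an unadjusted p under 0.05, all higher. Of the 34 named genes, 14 changed sign in no alternative and 11 changed it under normexp. For the dim genes Gpx2 and Mgst2 the difference was 0.04 and 0.75 under normexp.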
